A study of Mus musculus with 5 samples.

Results

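*Ccl3*, *Ccl4*, *Ccl5* and *Xcl1* encode chemokines that lymphocytes release, and their transcripts were followed here in thymic CD4 single positive (CD4 SP) cells of wild type (WT) mice and of mice without TET2 and TET3. The 4 genes were found by their Ensembl identifiers among the 55487 gene identifiers of the count files, and they were chosen from their counts in these same 5 libraries. The difference between genotypes in these genes is therefore given as a description, with no test. All 4 passed the filter on low counts, as did 13525 identifiers in all, and *Ccl3* passed it through its DKO counts alone. *Ccl5* and *Xcl1* were 2.54- to 5.97-fold above the pooled WT libraries in each *Tet2/3* DKO library, whereas *Ccl3* and *Ccl4* were 11.2- to 70.1-fold higher in DKO replicate 2 than in DKO replicate 1.

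TET proteins oxidise 5-methylcytosine in DNA, and the study asked how gene expression in CD4 SP cells changes without them. RNA was sequenced from 3 WT mice and 2 mice of the genotype Tet2-/-Tet3flx/flxCD4cre (*Tet2/3* DKO), all on the C57BL/6J strain and 21 to 30 days old, with 1 library per mouse. In the DKO mice *Tet2* is lost in every cell, while CD4Cre removes the floxed *Tet3* from the CD4-expressing thymocyte stage onward, so both proteins are missing only in the T cell lineage. The label of the WT mice names neither Cre nor a floxed allele. The cells, labelled CD4+HSAlowTCRb+, were sorted from thymus after CD24-high cells had been depleted, as live CD4+, TCRb+, CD8- cells that did not bind the aGalCer-loaded CD1d tetramer, with a stated purity above 98%.

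Chemokines are small secreted proteins that bind G protein-coupled receptors and guide the movement of leukocytes. CCL3, CCL4 and CCL5 are CC chemokines, and CCL3 and CCL5 bind the receptor CCR1. XCL1 is a C chemokine whose receptor XCR1 marks the dendritic cells that cross-present antigen, and in the thymus it is known as a product of medullary epithelial cells. In T cells and NK cells these 4 genes are known as part of the effector programme, and resting naive T cells make little of them.

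The families are named for the cysteines near the start of the mature protein. The stretches below are from the coding sequences of *Ccl4*, *Ccl5* and *Xcl1*, 5′ to 3′, in the GENCODE transcripts of GRCm38, and they are shown because they separate CC genes from *Xcl1*. Capitals mark the cysteine codon or codons, with 5 codons on each side.
*Ccl4*: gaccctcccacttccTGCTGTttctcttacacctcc
*Ccl5*: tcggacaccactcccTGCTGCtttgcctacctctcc
*Xcl1*: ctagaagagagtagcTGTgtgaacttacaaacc
*Ccl4* and *Ccl5* have 2 adjacent cysteine codons at this place and *Xcl1* has 1. The closest pair of coding sequences, *Ccl3* and *Ccl4*, was identical at 69.6% of aligned bases, and the longest exact run shared by any pair of the 4 transcripts was 13 bases, so reads of these genes are not near-identical copies of each other.

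The CC genes lie together on chromosome 11 of GRCm38. *Ccl3* (ENSMUSG00000000982) spans chr11:83647844-83649355 on the minus strand, and *Ccl4* (ENSMUSG00000018930) spans chr11:83662584-83664683 on the plus strand, with its start 13.2 kb from that of *Ccl3*. *Ccl5* (ENSMUSG00000035042) spans chr11:83525778-83530518 on the minus strand, with its start 119 kb from that of *Ccl3*. *Xcl1* (ENSMUSG00000026573) is on chromosome 1, at chr1:164931644-164935527 on the minus strand. The protein-coding transcript of each gene has 3 exons.

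The libraries held 17607089 to 27267031 reads on genes. *Tet3*, the gene deleted in the T cell lineage, was at 43.8 to 52.5 CPM (counts per 1000000 reads on genes) in the WT libraries and at 20 and 13.1 CPM in DKO replicates 1 and 2. *Tet2* reads were at 52.4 to 57.8 CPM in WT and 91.5 and 58.6 CPM in DKO, so the gene-level count does not check that deletion. The T cell markers *Cd3d*, *Cd3e*, *Cd3g*, *Cd4* and *Cd5* were present in every library. The sex-linked reads of 2 libraries went against their labels. WT replicate 1, labelled female, had 0 *Xist* reads and 6821 reads on 4 Y-linked genes, and DKO replicate 1, labelled male, had 744 *Xist* reads and 7 Y-linked reads. WT replicates 2 and 3 and DKO replicate 2 had 2, 1 and 0 *Xist* reads and 6691, 7041 and 5101 Y-linked reads. The methods of the study give all 5 mice as male, which goes against the reads of DKO replicate 1 alone. The fold changes of the 4 genes and the calls of each gene list are also given without WT replicate 1 and DKO replicate 1.

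*Ccl3*, which encodes a ligand of CCR1, was close to absent in WT cells. It had 1, 1 and 2 reads in WT replicates 1, 2 and 3, against 12 in DKO replicate 1 and 717 in DKO replicate 2. No WT library exceeded the 3 reads that a count of 0 would allow, and both DKO libraries were above them. As CPM scaled by the trimmed mean of M values (TMM), these were 0.0387, 0.0421 and 0.0729 in WT, and 0.572 and 40.1 in DKO. The ratio to the 4 WT reads pooled was 11.0 in DKO replicate 1 (95% interval 3.34 to 46.9) and 773 in DKO replicate 2 (300 to 2843). These intervals are exact conditional binomial ones and cover counting error only, not the spread between mice.

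*Ccl4*, the closest neighbour of *Ccl3* among the 4 genes in position and in coding sequence, had 18, 10 and 28 reads in the WT libraries and 104 and 993 in DKO replicates 1 and 2. Its CPM were 0.696, 0.421 and 1.02 in WT and 4.96 and 55.6 in DKO. The groups did not overlap, and DKO replicate 1 stood much nearer to WT than to DKO replicate 2 in CPM. Against pooled WT the ratio was 6.82 (4.88 to 9.61) in DKO replicate 1 and 76.4 (58.4 to 102) in DKO replicate 2.

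*Ccl5*, which encodes RANTES and is a ligand of CCR1 and CCR3, had 66, 45 and 128 reads in WT and 165 and 210 in DKO. The CPM were 2.55, 1.90 and 4.66 in WT and 7.87 and 11.7 in DKO. The DKO values were above every WT value, and WT replicate 3 reached 4.66 CPM against 7.87 CPM in DKO replicate 1. The ratio to pooled WT was 2.54 (2.07 to 3.10) and 3.79 (3.13 to 4.58), intervals that do not overlap but cover counting error only.

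*Xcl1*, the ligand of XCR1, had 33, 21 and 55 reads in WT and 105 and 151 in DKO. The CPM were 1.28, 0.885 and 2.0 in WT and 5.01 and 8.45 in DKO, and the groups did not overlap. The ratio to pooled WT was 3.54 (2.68 to 4.67) in DKO replicate 1 and 5.97 (4.64 to 7.71) in DKO replicate 2. Among the WT libraries, replicate 3 had the highest CPM of *Ccl3*, *Ccl4*, *Ccl5* and *Xcl1* alike.

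**Figure D1:**
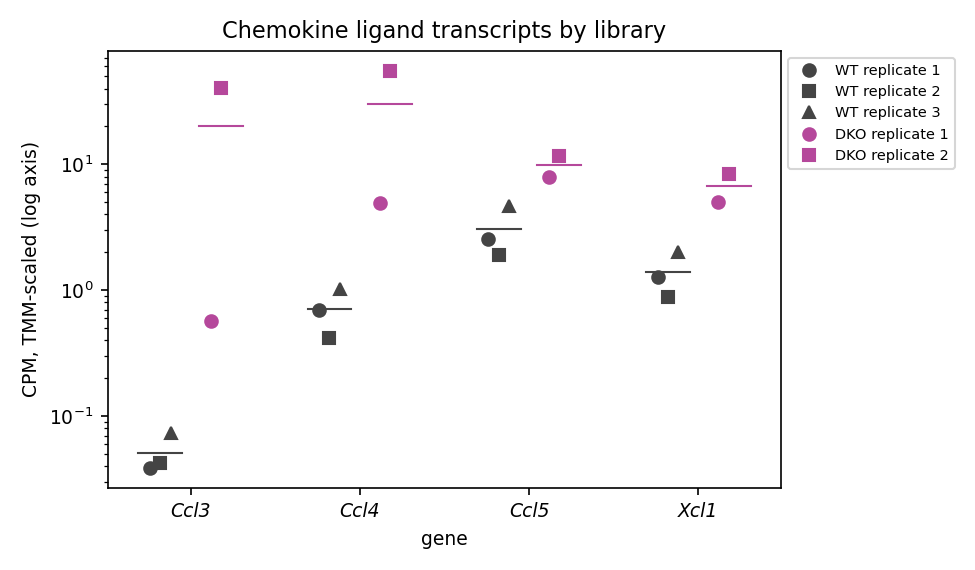
TMM-scaled CPM on a log axis for each of the 5 libraries, by gene, with WT in grey, DKO in purple and a horizontal line at each group mean. The WT points of *Ccl3* lie at 0.0387 to 0.0729 CPM, and the DKO points of *Ccl3* and *Ccl4* are far apart (0.572 and 40.1, 4.96 and 55.6) while those of *Ccl5* and *Xcl1* are close.

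In the fit across all tested genes, the log2 fold change of DKO against WT was 8.42 (SE 1.67) for *Ccl3*, from 0.0512 ± 0.0188 CPM (SD, n = 3) to 20.3 ± 28.0 CPM (SD, n = 2). For *Ccl4* it was 5.34 (SE 1.02), from 0.713 ± 0.300 CPM to 30.3 ± 35.8 CPM. In both genes the SD of the DKO libraries was larger than their mean. For *Ccl5* it was 1.65 (SE 0.34), from 3.04 ± 1.45 CPM to 9.81 ± 2.75 CPM, and for *Xcl1* 2.23 (SE 0.37), from 1.39 ± 0.568 CPM to 6.73 ± 2.43 CPM. The fitted value of *Ccl3* depends on how its 4 WT reads are treated and is no bound. In this fit 3.92% of the tested genes passed an adjusted p of 0.01, 2.42% higher and 1.50% lower in DKO, and both DKO libraries were above every WT library in 19.6% of them. The 4 genes are among the last of these, which is part of how they were chosen. An unadjusted p under 0.05 in edgeR was found in 23.0% of the tested genes, and the alternative tool DESeq2 called 7.03% of the genes for which it gave an adjusted p, 3.99% higher and 3.05% lower. In RNA from a sorted bulk population, a larger share of cells with a transcript and more transcript per cell cannot be told apart.

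The DKO libraries differed from each other in a gene-specific way. They also differed in sex-linked reads, with 744 and 0 *Xist* reads and 7 and 5101 Y-linked reads in DKO replicates 1 and 2. Sex therefore cannot be told apart from other differences between these mice. DKO replicate 2 was 70.1-fold above DKO replicate 1 for *Ccl3* and 11.2-fold above it for *Ccl4*, against 1.69-fold for *Xcl1* and 1.49-fold for *Ccl5*. A difference of at least 4-fold in this direction was found in 2.01% of the tested genes, and over the 13467 genes with reads in both libraries the log2 ratio ran from -1.03 at the 5th percentile to 1.12 at the 95th percentile. Without DKO replicate 2 the log2 fold change was 3.33 (SE 0.91) for *Ccl3* and 2.75 (SE 0.38) for *Ccl4*, against 8.42 and 5.34 with it. Without DKO replicate 2 *Ccl5* was at 1.33 (SE 0.34) and *Xcl1* at 1.81 (SE 0.36). Without WT replicate 1 and DKO replicate 1, the libraries whose sex-linked reads go against the labels, the values were 9.28 for *Ccl3*, 6.21 for *Ccl4*, 1.80 for *Ccl5* and 2.50 for *Xcl1*. The fits that leave out a DKO library rest on 1 DKO mouse, which is assumed to vary like the WT mice.

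**Figure D2:**
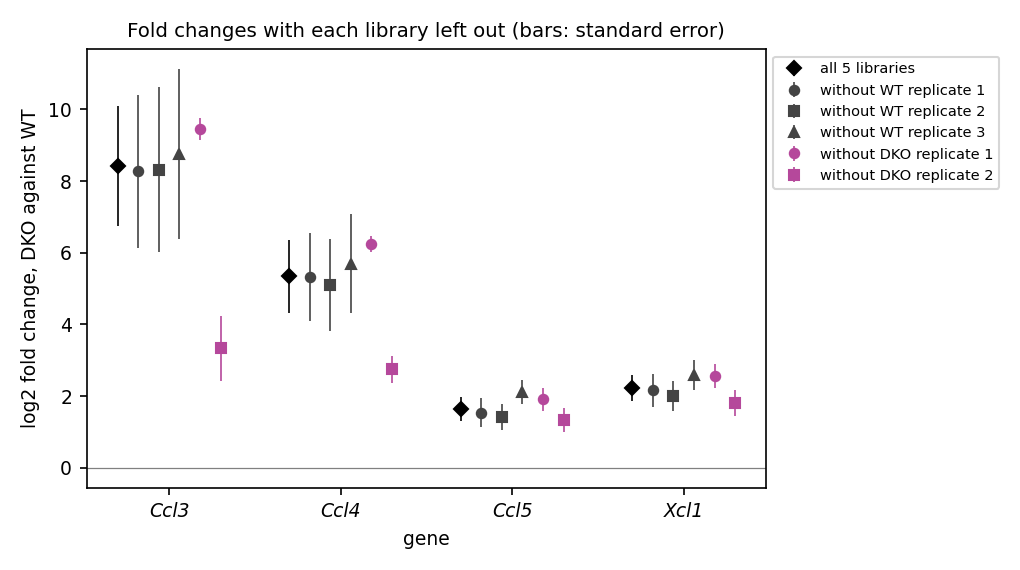
Log2 fold change of DKO against WT with its standard error, from the fit of all 5 libraries (black) and from fits that leave out 1 library each. *Ccl3* and *Ccl4* drop to 3.33 and 2.75 without DKO replicate 2, and *Ccl5* and *Xcl1* stay between 1.33 and 2.60 whichever library is left out.

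The T cell receptor beta reads of the same libraries also differed between the DKO libraries. The 10 largest clonotypes held 33.2% of beta chain reads in DKO replicate 2 (95% Wilson interval 32.3 to 34.1) and 8.33% in DKO replicate 1 (7.85 to 8.85), against 0.430% to 0.511% in the WT libraries. These intervals treat reads as independent molecules and cover counting error only, with 1 library per mouse. Whether the expanded clones have a part in the levels of *Ccl3* and *Ccl4* was not tested.

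Levels of different genes were compared as CPM per kilobase of annotated exon. In WT cells *Ccl5* was highest at 3.16 ± 1.51 (SD, n = 3) and *Xcl1* followed at 2.65 ± 1.09, a gap smaller than either SD. *Ccl4* came next and *Ccl3* last, with 14.6% to 17.0% and 0.814% to 1.26% of the summed level of the 4 genes. On this scale the order *Ccl5*, *Xcl1*, *Ccl4*, *Ccl3* was found in each WT library. In DKO replicate 1 the shares were 36.8% for *Xcl1*, 31.5% for *Ccl5*, 28.9% for *Ccl4* and 2.87% for *Ccl3*. In DKO replicate 2 the order was turned over, with 51.0% for *Ccl4*, 31.8% for *Ccl3*, 9.79% for *Xcl1* and 7.42% for *Ccl5*. The summed level of the 4 genes was 4.36 to 10.3 CPM per kb in WT, 26.0 in DKO replicate 1 and 165 in DKO replicate 2.

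**Figure D3:**
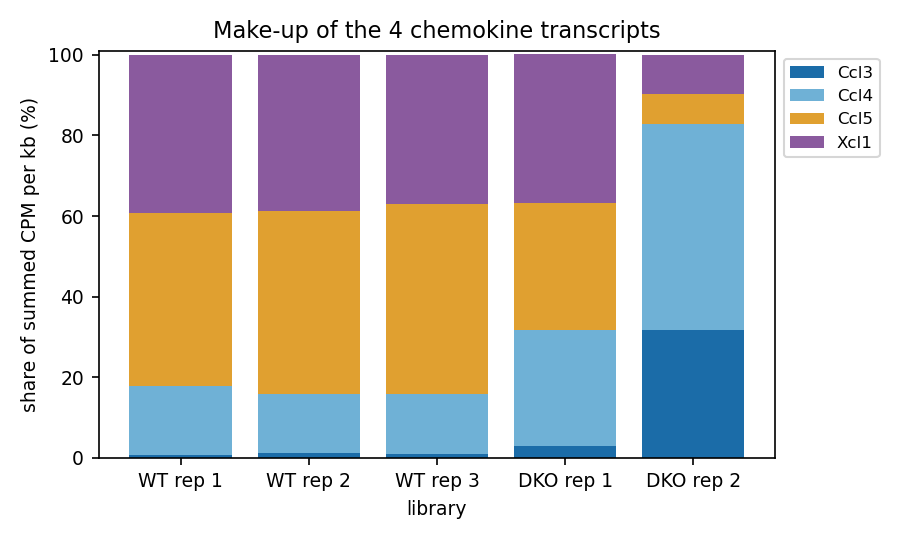
Share of each gene in the summed CPM per kb of the 4 genes, as stacked bars for each library. *Ccl5* and *Xcl1* make up most of the bar in the WT libraries and in DKO replicate 1, and *Ccl4* and *Ccl3* make up 51.0% and 31.8% in DKO replicate 2.

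The order of *Ccl5* and *Xcl1*, and the shares of all 4 genes, depend on how each is counted. The exon length of *Ccl5* (960 bases) includes a transcript with a retained intron, and over its coding transcript alone (532 bases) *Ccl5* was at 14.8 and 22.1 CPM per kb in the DKO libraries, against 9.57 and 16.2 for *Xcl1*. For *Xcl1*, reads over part of the gene were left out of the unstranded counts. Its first exon, chr1:164935430-164935527, lies within an exon of *Gm20743* (ENSMUSG00000104117), a long noncoding RNA gene on the opposite strand. The 98 shared bases are 18.7% of the *Xcl1* exon length, and the 61 coding bases among them (chr1:164935430-164935490, minus strand, start codon in capitals) are shown because reads that touch them were assigned to neither gene when strand was ignored.
*Xcl1*, coding part of exon 1: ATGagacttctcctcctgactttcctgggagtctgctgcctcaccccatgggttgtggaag
The deposited strand columns, summed, gave 64, 54 and 108 *Xcl1* reads in WT and 203 and 263 in DKO. The unstranded counts therefore kept 38.9% to 57.4% of these reads. For *Ccl3*, *Ccl4* and *Ccl5* they kept 99.7% to 100% in each library. With the strand columns summed the log2 fold change of *Xcl1* was 2.05 (SE 0.28), and *Xcl1* was at 18.5 and 28.1 CPM per kb in the DKO libraries, above *Ccl5* over its coding transcript. In WT replicates 1, 2 and 3 *Xcl1* was then at 4.73, 4.35 and 7.52 CPM per kb and *Ccl5* at 4.80, 3.56 and 8.77, so the order of these genes in WT cells was not the same in every library. Counted over coding transcripts with the strand columns summed, a choice made after the data were seen, *Ccl4* held 7.42% to 9.92% of the summed level in WT and *Ccl3* 0.475% to 0.639%. The shares were then 18.1% and 1.80% in DKO replicate 1 and 45.1% and 28.1% in DKO replicate 2. On both scales *Ccl3* was lowest and *Ccl4* next lowest in the WT libraries and DKO replicate 1. The library kit does not mark strand (49.8% to 50.2% of reads fell on one of the strands), so *Xcl1* and *Gm20743* reads in the shared exon cannot be told apart.

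**Figure D4:**
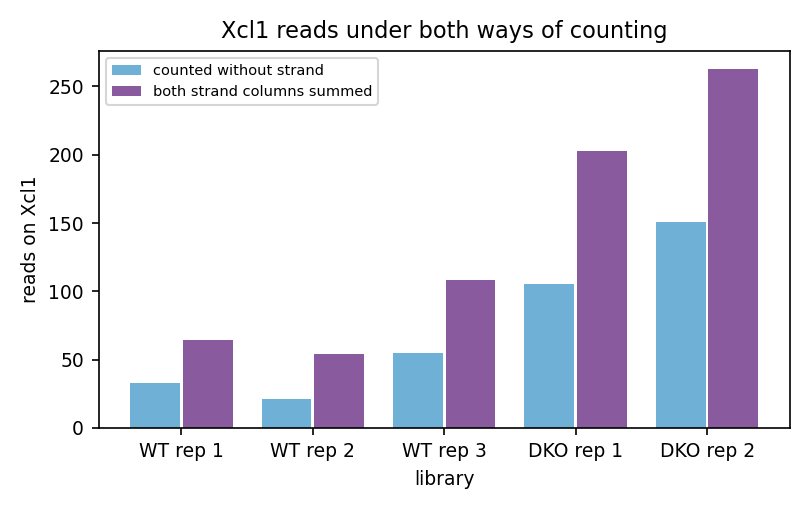
Reads on *Xcl1* in each library when strand was ignored (blue) and when both strand columns were summed (purple), from 0. The summed counts of 54 to 108 in WT and 203 and 263 in DKO stand against 21 to 55 and 105 and 151 without strand, and the groups stay apart in both.

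The genes whose pattern over the 5 libraries was most like each chemokine were ranked by the root mean square difference of log2 CPM, each gene centred on its own mean. *Ccl3* was closest to *Mmp10*, a matrix metalloproteinase, at 0.16 log2 units, with 0, 0, 1, 11 and 528 reads in WT replicates 1 to 3 and DKO replicates 1 and 2. It was followed by *Shtn1* (0.37), *1700019D03Rik* (0.61), *Cadm1* (0.79) and *Igfbp7* (0.81), and *Ccl4* was its eighth neighbour at 0.91. From the side of *Ccl4*, *Ccl3* was neighbour 41. *Ccl4* was closest to *Rnf128* (0.31), which encodes the ubiquitin ligase GRAIL, then to *Cybb* (0.35), which encodes a subunit of the phagocyte NADPH oxidase, *Lilr4b* (0.36), *Fam84a* (0.40) and *Srxn1* (0.42).

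*Ccl5* and *Xcl1* were near to each other, at 0.26 log2 units. *Xcl1* was closest to *Rps4l* (0.13) and to *Cxcr6* (0.15), a chemokine receptor gene with 831, 641 and 1210 reads in WT and 2527 and 3185 in DKO, and then to *Prss30* (0.19), *Slc9a7* (0.24) and *Prrt1* (0.25). *Ccl5* was closest to *Ociad2* (0.10), *F2rl2* (0.18), *Rhobtb1* (0.18), *Hist1h4n* (0.19) and *Gprin3* (0.20). *Ccl3* was 2.43 log2 units from *Ccl5* and 2.22 from *Xcl1*, and *Ccl4* was 1.62 and 1.39 from them, against 0.91 between *Ccl3* and *Ccl4*. With 5 libraries these distances are a description of shape and mostly reflect the 2 DKO libraries.

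Of the 5 receptor genes reported here, *Xcr1* alone had enough reads to be tested, and it did not pass the adjusted p of 0.01 in edgeR, though its unadjusted p was under 0.05. *Xcr1* had 18, 15 and 19 reads in WT and 38 and 35 in DKO, with a log2 fold change of 1.47 (SE 0.36, edgeR adjusted p = 0.0341). *Ccr1* was too low to be tested, with 0, 1 and 3 reads in WT, 2 in DKO replicate 1 and 74 in DKO replicate 2, a 43.4-fold gap in CPM between the DKO libraries. DESeq2, which keeps such genes, called *Ccr1* (adjusted p = 0.00283), and edgeR called *Ccr1* and *Ccr3* without DKO replicate 1, alone or with WT replicate 1. Those fits called 9.13% and 9.55% of all genes. In them 1 library is enough to pass the filter, and both genes passed it through DKO replicate 2 alone, so these calls follow from the library in which the genes are high. *Ccr3* had 5, 0, 3, 9 and 28 reads in the same order, *Ackr1* had none and *Ackr2* had at most 2.

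Of 34 other chemokine ligand genes, 8 had enough reads to be tested and 0 passed the adjusted p of 0.01 in edgeR, with 4 at an unadjusted p under 0.05, against 23.0% of all tested genes, and 1, *Cxcl10*, called by DESeq2, against 7.03% of all genes there. *Ccl6* and *Ccl8* passed the filter through their DKO counts alone, so the count over the 8 is no measure of the ligands as a group. A further 14 had at most 3 reads in every library. The most abundant was *Ccl25*, which thymic epithelium is known to make, at 13.4 ± 0.983 CPM in WT and 12 ± 1.89 CPM in DKO (log2 fold change -0.15, SE 0.17, edgeR adjusted p = 0.663). *Cxcl10*, an interferon-induced ligand of CXCR3, had 31, 23 and 21 reads in WT and 147 and 50 in DKO, so that the larger value was in DKO replicate 1 (log2 fold change 2.36, SE 0.45, edgeR adjusted p = 0.0121). *Ccl1* had 7, 7 and 16 reads in WT, 3 in DKO replicate 1 and 62 in DKO replicate 2 (log2 fold change 2.10, SE 0.96, edgeR adjusted p = 0.233), and *Ccl27a* was at 1.64 ± 0.333 CPM in WT and 1.13 ± 0.0911 CPM in DKO. Without WT replicate 1 and DKO replicate 1, *Ccl1*, *Ccl6*, *Ccl9* and *Cxcl10* passed the threshold in edgeR, in a fit that called 9.55% of all genes, and *Ccl6* and *Ccl9* entered it through DKO replicate 2 alone.

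Of 41 genes whose annotated start lies within 250 kb of one of the 4 starts, 8 were tested and 0 passed the threshold in edgeR or in DESeq2, with 3 at an unadjusted p under 0.05 in edgeR, a cut that 23.0% of all tested genes met. Their median log2 fold change was 0.03, against 0.01 over all tested genes. The abundant neighbours *Ap2b1*, *Heatr6* and *Taf15* had log2 fold changes of 0.09, -0.02 and 0.18, and *Dpt*, at 1.20 ± 0.586 CPM in WT and 0.378 ± 0.139 CPM in DKO, had one of -1.59 (SE 0.64, edgeR adjusted p = 0.172). Between *Ccl5* and *Ccl3* lie the CC ligand genes *Ccl6* and *Ccl9*, named here after their values were seen. *Ccl6*, 56.3 kb from the *Ccl3* start, had 0, 4 and 10 reads in WT and 27 and 35 in DKO (log2 fold change 3.10, SE 0.65, edgeR adjusted p = 0.0168). *Ccl9* was too low to be tested, with 1, 4 and 1 reads in WT and 4 and 46 in DKO. Both were the neighbours called without WT replicate 1 and DKO replicate 1, where they passed the filter through DKO replicate 2 alone.

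Of 11 effector genes that T cells and NK cells use, 10 were tested and 4 rose, where 2.42% of all tested genes were called higher. *Nkg7* rose by a log2 fold change of 3.74 (SE 0.24, edgeR adjusted p = 3.09e-05) and *Prf1*, perforin, by 1.67 (SE 0.11, edgeR adjusted p = 3.09e-05). *Gzma*, granzyme A, rose by 4.23 (SE 0.49, edgeR adjusted p = 0.00108) and *Srgn*, the granule proteoglycan serglycin, by 1.20 (SE 0.13, edgeR adjusted p = 0.000729), and these 2 calls were lost without WT replicate 2 and without WT replicate 3. DKO replicate 2 was 1.02-fold above DKO replicate 1 for *Prf1*, 1.41-fold for *Srgn*, 1.77-fold for *Nkg7* and 3.04-fold for *Gzma*. *Gzmb*, granzyme B, was named after its values were seen, because its DKO libraries were 47.1-fold apart, with 21 and 843 reads against 62 to 109 in WT (log2 fold change 2.89, SE 0.98, edgeR adjusted p = 0.110). *Gzmk*, granzyme K, had 16, 15 and 91 reads in WT and 1 and 32 in DKO (log2 fold change -0.88, SE 1.02, edgeR adjusted p = 0.676). The cytokine genes *Ifng*, *Tnf* and *Il2* did not pass the threshold, and *Csf2* had no reads. Without WT replicate 1 and DKO replicate 1, 6 effector genes rose, with *Gzmb* and *Ifng* beside the 4 named, in a fit that called 6.93% of all genes higher, against 2.42% with all 5 libraries.

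Of 14 genes for transcription factors known to act on chemokine or effector genes, 2 rose, against 2.42% of all tested genes called higher. *Eomes*, a T-box factor, had 46, 49 and 72 reads in WT and 1704 and 1658 in DKO, a log2 fold change of 5.32 (SE 0.16, edgeR adjusted p = 1.02e-06). *Stat4*, which signals from the IL-12 receptor, rose by 1.84 (SE 0.12, edgeR adjusted p = 3.09e-05). The DKO libraries were close to each other in both, at 1.14- and 1.23-fold. The most abundant of the list, *Klf13*, *Rela*, *Fos* and *Nfatc1*, had log2 fold changes of -0.10, -0.17, 0.71 and 0.17. *Tbx21*, which encodes T-bet and was singled out for that role, was at 1.87 (SE 0.40, edgeR adjusted p = 0.0190). DESeq2 called 4 genes of the list, *Tbx21* (adjusted p = 9.36e-05) and *Nfkb1* (adjusted p = 0.000569) beside *Eomes* and *Stat4*, where DESeq2 called 7.03% of all genes and edgeR 3.92%. Without WT replicate 1 and DKO replicate 1, edgeR called *Eomes*, *Stat4* and *Tbx21* higher and *Runx1* lower, in the fit that called 9.55% of all genes.

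Of 11 genes that T cell receptor signals induce early, 0 passed the threshold in edgeR, with 5 at an unadjusted p under 0.05, against 23.0% of all tested genes. DESeq2 called 2, in opposite directions, *Nr4a2* at 1.30 (DESeq2 adjusted p = 0.00810) and *Nr4a1* at -0.59 (DESeq2 adjusted p = 0.00457). In edgeR *Cd69* was at 1.20 (SE 0.23, edgeR adjusted p = 0.0131) and *Nr4a1* had an adjusted p of 0.0524, while *Myc* and *Tnfrsf9* had log2 fold changes of 0.35 and -0.55. The count for this list depended on the DKO library: without DKO replicate 1, 4 genes were higher and 1 lower, and without DKO replicate 2, 1 was higher and 4 were lower. Over all genes the first of these fits called 6.57% higher and 2.56% lower, and the second 4.77% and 3.22%. Without WT replicate 1 and DKO replicate 1 the list again had 4 higher and 1 lower, against 6.93% and 2.62% of all genes.

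**Figure D5:**
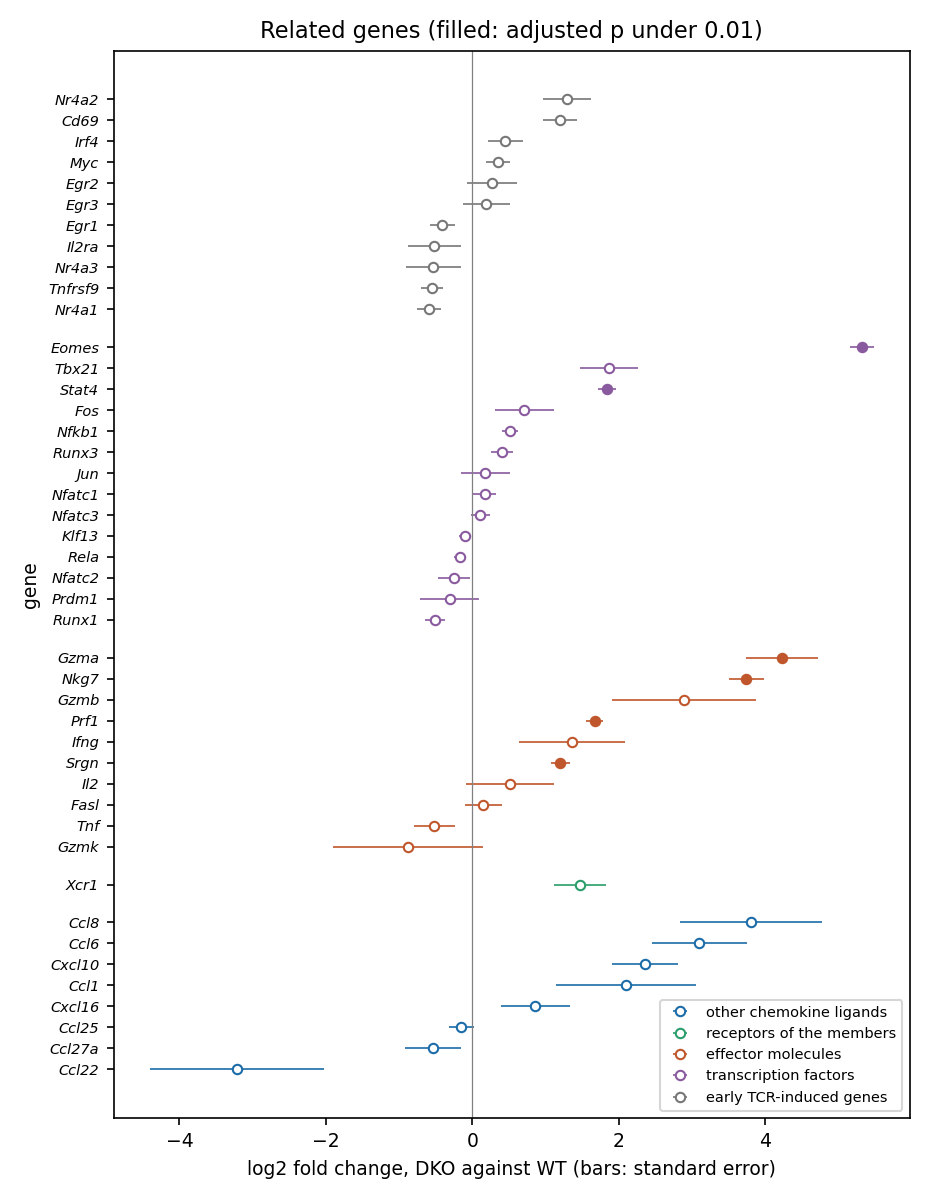
Log2 fold change of DKO against WT with its standard error for the tested genes of each list, filled where the adjusted p was under 0.01. *Gzma*, *Nkg7*, *Prf1*, *Srgn*, *Eomes* and *Stat4* are filled, and no plotted chemokine ligand or early T cell receptor-induced gene is.

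Some markers of other cells were also higher in the DKO libraries. Of 5 NK cell markers *Klrb1c* and *Klrd1* rose, where 2.42% of all tested genes were called higher. *Ncr1*, with 1, 0 and 0 reads in WT and 31 and 40 in DKO, was also called, but it passed the filter through its DKO counts alone. The summed level of the list was 6.83 to 8.51 CPM in WT, 25.3 CPM in DKO replicate 1 and 58.7 CPM in DKO replicate 2. The calls of *Ncr1* and *Klrb1c* were lost without any 1 of the WT libraries, and that of *Klrd1* without WT replicate 2 or WT replicate 3. *Zbtb16*, the marker of iNKT cells, rose by 3.85 (edgeR adjusted p = 8.57e-05) although tetramer-binding cells had been sorted out. *Tcrg-C1*, 1 of 3 gamma delta T cell markers, rose by 4.40 (edgeR adjusted p = 3.09e-05), against 2.42% of all tested genes called higher. The gamma delta list summed to 17.0 to 20.3 CPM in WT and to 77.7 and 119 CPM in DKO, of which *Tcrg-C1* alone was 59.2 and 103 CPM. The other markers of that list did not pass the threshold, *Trdc* at 0.33 (edgeR adjusted p = 0.377) and *Sox13* at -2.12 (edgeR adjusted p = 0.0361), with 25 to 28 *Sox13* reads in WT and 5 and 4 in DKO. Of 6 myeloid markers 5 were tested and 0 passed the threshold in edgeR or DESeq2, with 4 at an unadjusted p under 0.05 in edgeR, against 23.0% of all tested genes. *Csf1r*, 1 of the 5, passed the filter through its DKO counts alone. The summed level of the list was 10 to 18.1 CPM in WT and 28.8 and 56.3 CPM in DKO. *Lyz2* passed the threshold when either DKO library was left out, in fits that called 9.13% of all genes without DKO replicate 1 and 8% (1148 of 14357) without DKO replicate 2, with *Cd68* called beside it without DKO replicate 1 and *Adgre1* without DKO replicate 2. *Adgre1*, with 0, 4 and 1 reads in WT and 25 and 7 in DKO, was too low to be tested with all 5 libraries. It entered the fit without DKO replicate 2 through DKO replicate 1 alone. Of the CD8 markers *Cd8b1* fell by 1.29 (edgeR adjusted p = 0.000168), where 1.50% of all tested genes were called lower. *Cd8a* had 3.67 ± 1.50 CPM in WT and 7.22 ± 2.05 CPM in DKO. *Cd5* fell by 1.28 and *Cd4* by 0.67, the call of *Cd4* being lost without any 1 of the WT libraries, and the 5 T cell markers summed to 6109 to 6385 CPM in WT and 6195 and 5136 CPM in DKO.

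The other lists held no gene past the threshold with all 5 libraries in edgeR or in DESeq2, with 2 dendritic, 1 B cell, 3 epithelial and 2 double positive markers at an unadjusted p under 0.05 in edgeR, a cut that 23.0% of all tested genes met. Dendritic cell markers summed to 69.3 to 94.7 CPM in WT and 82.5 and 140 CPM in DKO, with at most 2 reads of *Itgax* and a log2 fold change of -1.64 for *Flt3*. *H2-Ab1*, *H2-Aa* and *Cd74* went the other way, at 1.66, 1.11 and 0.33. *H2-Ab1* was at 5.72 and 26.5 CPM and *H2-Aa* at 2.48 and 13.1 CPM in DKO replicates 1 and 2. The B cell markers reported here summed to 5.42 to 6.92 CPM in WT and 8.87 and 7.11 CPM in DKO, and thymic epithelial markers to 10.5 to 13.2 CPM in WT and 10.7 and 34.0 CPM in DKO. *Epcam* alone was 33.8 CPM of the last value, while *Krt8* and *Psmb11* had log2 fold changes of -2.52 and -5.05. *Rag1*, which marks double positive thymocytes, had no reads, and that list summed to 27.2 to 37.9 CPM in WT and 20.4 and 20.7 CPM in DKO. DKO replicate 2 had the highest summed level of the NK, iNKT, gamma delta, myeloid, dendritic and thymic epithelial lists, and also of the effector and receptor lists and of each of the 4 chemokines. The B cell, transcription factor and early T cell receptor-induced lists were highest in DKO replicate 1. WT replicate 3 was highest for the T cell, CD8 and double positive lists. Without WT replicate 1 and DKO replicate 1 the marker calls given above remained, and *Klrk1*, *Klre1*, *Lyz2*, *Cd68*, *Csf1r*, *H2-Aa*, *H2-Ab1*, *Epcam*, *Psmb11*, *Cd8a* and *Cd24a* also passed the threshold, in the fit that called 9.55% of all genes. Among the genes added there, *Psmb11* and *Cd24a* were lower in DKO, with log2 fold changes of -7.18 and -1.13, and the rest were higher. *Ncr1* and *Csf1r* entered that fit through DKO replicate 2 alone. The part of other cells in the chemokine levels was not tested.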

How the data were processed

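The 4 genes and the gene lists were chosen with earlier results of these data known. The authors trimmed reads with fastp 0.21.0, mapped them to mm10 with STAR 2.7.5a and deposited raw read counts per gene, once without strand and once for each strand. The unstranded counts were used. Reads on no gene feature (5.70% in DKO replicate 1 and 3.51% to 3.72% in the other libraries), multimapped and ambiguous reads stayed out of the library sizes. Deposited clonotype counts gave the beta chain shares, the alpha chain tables were not used, and the tool that made them is not given in the sources used here.

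Counts were filtered with filterByExpr, scaled by TMM to CPM (counts per 1000000 reads on genes) and tested by genotype with the edgeR 4.0.16 quasi-likelihood test (R 4.3.3), with Benjamini-Hochberg adjustment over 13525 genes and a threshold of 0.01. The p-values measure the spread between 1 library per mouse. DESeq2 1.42.0, the tool of the study, was an alternative. The fit was tested on simulated data. Symbols were found for 55141 of 55487 identifiers, and exon lengths and coding sequences came from GENCODE M21 (GRCm38). A count of 0 allows up to 3 reads, which is 0.109 to 0.168 CPM, and this covers counting error only. Log2 CPM for likeness used a prior count of 2.

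Named were the 4 genes, the 5 genes most like each, and of each list the genes past the threshold and up to 4 of the most abundant, with exceptions stated. A few listed genes and 1 sequence are not reported here and are left out of the list counts. Of the marker lists the summed level is given instead. Alternatives were another scaling, no filter, legacy dispersion, prior count 2, DESeq2, each strand column, a threshold of 0.05, a replicate block and each library left out. Summed strand columns, coding transcript lengths and leaving out WT replicate 1 with DKO replicate 1 were added after the data were seen.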

Additional observations from a re-analysis of the deposited data

How the results depend on the processing

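*Ccl3*, *Ccl4*, *Ccl5* and *Xcl1* kept a positive fold change in each fit that could be made, though *Ccl3* did not pass the filter on a single strand column and has no value there. Leaving out 1 library gave log2 fold changes of 3.33 to 9.45 for *Ccl3*, 2.75 to 6.24 for *Ccl4*, 1.33 to 2.12 for *Ccl5* and 1.81 to 2.60 for *Xcl1*, with the lowest of each without DKO replicate 2. The highest were without DKO replicate 1 for *Ccl3* and *Ccl4* and without WT replicate 3 for *Ccl5* and *Xcl1*. A move was judged against the SD of log2 CPM between the DKO libraries, which was 4.19 for *Ccl3* and 2.45 for *Ccl4*, so an unmoved value there shows little. The share of genes at least 4-fold higher in DKO replicate 2 was 11.3% without a filter, which lets in genes with few reads.

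With the replicate number as a block the log2 fold changes were 8.71, 5.46, 2.11 and 2.59. Deviations from the group means correlated at 0.0151 for replicates 1 and 0.00446 for replicates 2, over 13525 genes. With 2 DKO libraries the DKO deviations mirror each other, so these values cannot decide whether the numbers pair mice. With the block the 530 genes past the threshold became 358, and those lower in DKO went from 203 to 126, a change of over 1.5 times. It ended the call of *Klrb1c* (log2 fold change 2.50, edgeR adjusted p = 0.0156) and no other call of the listed genes.

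The 530 genes past the threshold became 1030 with DESeq2, 1173 at 0.05, 110 to 1311 with 1 library left out and 1345 without WT replicate 1 and DKO replicate 1. Other ligands, 0 by edgeR, were 1 with no filter, legacy dispersion, DESeq2 or strand column 3, 3 at 0.05, 0 to 3 with 1 library left out and 4 without the 2 mismatched libraries. The receptors reported here, 0 by edgeR, were 1 with DESeq2 or at 0.05, 0 to 2 with 1 left out and 2 without both. Effector genes were 2 to 6 with 1 left out. Transcription factors were 4 with DESeq2, at 0.05 and without both, and 2 to 5 with 1 left out. Early T cell receptor-induced genes were 1 with no filter or strand column 4, 2 with DESeq2 or at 0.05, 0 to 5 with 1 left out and 5 without both. Neighbouring genes were 2 on strand column 3, 1 on strand column 4, with the strands summed or at 0.05, 0 to 2 with 1 left out and 2 without both. The neighbour called on either strand column and on their sum is *Gm20743*, of whose strand-summed reads the unstranded counts keep 0% to 6.67%. Reads that touch the exon it shares with *Xcl1* are counted for one gene or the other by strand in those columns. The call of *Gm20743* is therefore no result separate from *Xcl1*. Over all genes the counts were 1030 of 14646 with DESeq2, 1173 of 13525 at 0.05 and 560 of 24705 with no filter. They were 529 of 13525 with legacy dispersion and 558 of 14925 with the strands summed. Strand columns 3 and 4 gave 517 of 13481 and 550 of 13518. Without WT replicates 1, 2 and 3 they were 152 of 13276, 110 of 13374 and 127 of 13279. The number tested in a list also changed, for other ligands from 5 on strand column 3 to 26 with no filter. Apart from *Gm20743*, the causes of these changes were not tested.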
